A study of Mus musculus with 1 sample.

Results

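Sertoli cells that held few transcripts of the proliferation genes *Mki67* and *Top2a* were described in a single-cell RNA library of control mouse fetal testes. A barcode was taken as such a cell if it had at least 1000 genes, a transcript of at least 6 of 8 Sertoli markers, and a transcript of at most 2 of 6 germ cell genes (*Dppa3*, *Dppa5a*, *Dazl*, *Ddx4*, *Pou5f1* and *Utf1*). In addition, the steroidogenic genes *Cyp11a1*, *Cyp17a1*, *Star* and *Hsd3b1* had to make up under 0.2% of its transcripts, and *Mki67* and *Top2a* together at most 4 transcripts. The Sertoli markers were *Amh*, *Sox9*, *Cst9*, *Aard*, *Tesc*, *Mro*, *Cldn11* and *Dhh*. Of 4301 barcodes with at least 1000 genes, 702 met the rule (16.3%, exact Clopper-Pearson 95% interval 15.2 to 17.5%). They are called *Mki67*-low Sertoli cells here, because the rule does not show that they were non-dividing. Of those deep enough to compare, 29.3% carried S phase transcripts at the level of the lower quartile of proliferating Sertoli cells or above. Reaching that level does not by itself show division either. The 253 barcodes that met the other limits but had over 4 transcripts of *Mki67* and *Top2a* are called *Mki67*-high Sertoli cells.

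The study addressed what Sertoli cells need the nuclear receptor gene *Nr5a1* for, and the control library shows these cells with the gene in place. It was made from 12 control testes, dissociated with trypsin and combined in 1 library. Embryonic day 14.5 is the age on the label, while the text of the study also names the preceding embryonic day for the single-cell work. The label gives the genotype as WT, whereas the methods name fetuses with the L2 alleles of *Nr5a1*, which are flanked by loxP sites, and without Cre as the controls for single cells. Polyadenylated transcripts were captured near their 3′ ends in droplets and counted as unique molecular identifiers (UMIs). Levels are given as counts per 1000000 UMIs of a group of cells (CPM), which are not divided by gene length because each transcript is counted at its end. As there was 1 library, the cells are not replicates, no test was possible, and every interval covers counting error only.

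Sertoli cells are the supporting cells of the testis cords. In the fetal testis they differentiate under SRY and SOX9, enclose the germ cells, and secrete anti-Müllerian hormone, which makes the Müllerian ducts regress. They also send the hedgehog and PDGF signals under which Leydig and peritubular myoid cells form, and they multiply until after birth, so that cycling and resting cells lie side by side in a cord.

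The library held 72595083 UMIs in 5421 barcodes, of which the *Mki67*-low Sertoli cells held 9521813. Single cells had between 1796 and 33167 UMIs, with a median of 13504 UMIs and 3857 genes. *Mki67*-high Sertoli cells were deeper, with a median of 18898 UMIs, which matters for a rule that counts UMIs. A median of 11.9% of the UMIs of a *Mki67*-low cell were mitochondrial, compared with 11.5% in *Mki67*-high Sertoli cells and 6.68% in all 3599 other barcodes. Those other barcodes include the *Mki67*-high Sertoli cells and 28 barcodes with at least 6 Sertoli markers and at least 4 germ genes. In all, 1017 barcodes with at least 1000 genes held at least 6 Sertoli markers. Folds against the others are thus in part folds against Sertoli cells. Of the 58696657 UMIs of the others, *Mki67*-high Sertoli cells held 5086496. This holds down the ratio of genes high in both Sertoli groups, and the order of such genes depends in part on how far these groups differ. Therefore 3 sets of the other barcodes were shown separately. The germ-gene barcodes (322, median 37820 UMIs) held at least 4 of the 6 germ genes, and the steroidogenic barcodes (249, median 19862 UMIs) at least 1% of UMIs from the 4 steroidogenic genes with at most 2 germ genes, both with fewer than 6 Sertoli markers. The interstitial barcodes (1901, median 10367 UMIs) held a transcript of both *Nr2f2* and *Pdgfra*, with at most 2 Sertoli markers, at most 2 germ genes and under 0.2% of UMIs from the steroidogenic genes.

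The cells were chosen by their counts of the 8 Sertoli markers, the germ and steroidogenic genes, *Mki67* and *Top2a*, so the levels of these genes describe the choice. *Amh*, the anti-Müllerian hormone, had 1958 CPM in *Mki67*-low Sertoli cells (exact Poisson 95% interval 1930 to 1986), 1706 CPM in *Mki67*-high Sertoli cells and 3.86 CPM in interstitial barcodes. Single cells held 0 to 135 *Amh* UMIs with a median of 25, and 5 of the 702 had none. *Sox9*, the transcription factor that directs Sertoli differentiation, was much scarcer, at 349 CPM (337 to 361) and a median of 4 UMIs in a cell. A *Sox9* UMI was seen in 95.2% of *Mki67*-low Sertoli cells and in 11.9% of the interstitial barcodes, which had been limited to at most 2 Sertoli markers. In the same interstitial barcodes the share was 4.42% for *Amh* and 17.4% for *Aard*, and since the number of markers chose these barcodes, none of these shares is a measure of background. *Dhh*, the hedgehog ligand, had 312 CPM (301 to 324) against 0.892 CPM in interstitial barcodes. *Cldn11*, a tight junction protein, was the marker missed most often, with a UMI in 44.2% of the cells and in 1.79% of the interstitial barcodes.

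The number of cells near each limit differed. All 8 markers were seen in 240 cells, 7 in 359 and 6 in 103. The 73 barcodes that were kept out with 5 markers were shallow, with a median of 3457 UMIs against 12305 in the cells with 6, and their summed marker level was 4010 CPM against 6460 CPM. For *Mki67* and *Top2a* the limit cut through a continuous range, with 537 cells at 0 UMIs, 21 at 4 and, just outside, 13 at 5. The S phase gene *Pcna* stood at 239 CPM in the cells with 4 UMIs and at 261 CPM in the barcodes with 5, compared with 80.6 CPM in those with 0. No germ gene was seen in 469 cells, and 21 barcodes were kept out by having 3. The 5 barcodes kept out by their steroidogenic genes alone had a summed marker level of 1724 CPM.

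A few of the cells stood apart and are described further down. They comprise 45 cells rich in fibrillar collagen transcripts, 14 cells with at least 15 UMIs of the cell cycle inhibitor gene *Cdkn1c*, and 3 cells with at least 5% of their UMIs from hemoglobin genes. Of 14 cells that a doublet caller marked, all were among the 45.

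Against all other barcodes, 162 of 10418 genes with a mean of at least 5 CPM were at least 4-fold higher in *Mki67*-low Sertoli cells (1.56% of genes) and 295 were at least 4-fold lower (2.83%), with 5 CPM added to both levels. These genes come from the same contrast that chose the cells, so they describe what such cells contain. Leaving out the 20 genes of the rule, the 25 genes with the highest ratio were all higher in *Mki67*-low and in *Mki67*-high Sertoli cells than in germ-gene, steroidogenic or interstitial barcodes.

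**Figure D1:**
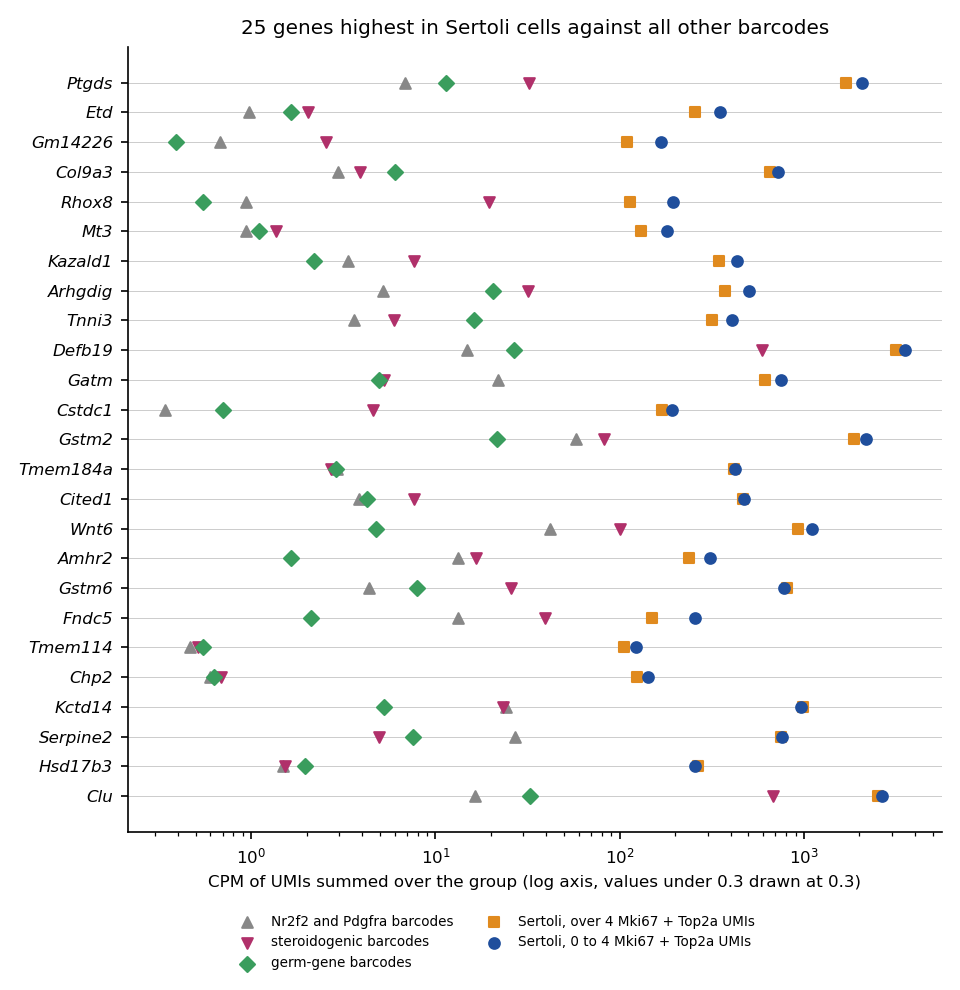
Levels of the 25 genes highest in *Mki67*-low Sertoli cells against all other barcodes, as CPM of UMIs summed over each group, on a log axis. Blue circles mark cells with 0 to 4 UMIs of *Mki67* and *Top2a* and orange squares those with over 4; both lie to the right of the germ-gene, steroidogenic and interstitial (*Nr2f2* and *Pdgfra*) barcodes for every gene.

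Several of the 25 genes encode secreted products. *Ptgds*, the prostaglandin D2 synthase, had the highest log2 ratio, 3.32, with 2077 CPM (2048 to 2106) in *Mki67*-low Sertoli cells and 203 CPM in all other barcodes. The *Mki67*-high Sertoli cells, which are among these others, had 1699 CPM. A *Mki67*-low cell held 0 to 89 *Ptgds* UMIs with a median of 26, and 8 cells had none. *Defb19*, a beta-defensin, was higher still in level, with 3536 CPM (3498 to 3574) against 434 CPM and a median of 47 UMIs in a cell. *Clu*, the secreted chaperone clusterin, had 2667 CPM against 369 CPM. Both of these were also found at a lower level in steroidogenic barcodes, at 590 CPM for *Defb19* and 680 CPM for *Clu*, whereas *Ptgds* stood there at 32.2 CPM. *Wnt6*, a WNT ligand, had 1110 CPM against 144 CPM, and *Serpine2*, a secreted inhibitor of serine proteases, 764 CPM against 102 CPM. Each of these genes was seen in at least 98.9% of the cells.

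Others encode enzymes, receptors or regulators. *Amhr2*, the type 2 receptor of anti-Müllerian hormone, had 311 CPM (300 to 322) against 37.5 CPM, with 0 to 17 UMIs in a cell and a median of 4. *Cited1*, a transcriptional co-regulator, had 475 CPM against 58.1 CPM. *Gatm*, which makes the creatine precursor guanidinoacetate, had 749 CPM against 89.0 CPM. *Hsd17b3*, the enzyme that turns androstenedione into testosterone, had 257 CPM (247 to 268) in *Mki67*-low Sertoli cells and 1.53 CPM in steroidogenic barcodes, which are the cells that hold the earlier enzymes of the pathway. Some genes better known from other tissues were in the same set, among them *Tnni3*, the cardiac troponin I, at 409 CPM against 45.8 CPM, *Col9a3*, a chain of the cartilage collagen IX, at 726 CPM against 76.1 CPM, and *Mt3*, a metallothionein best known from brain, at 180 CPM against 16.5 CPM. The X-linked homeobox gene *Rhox8* had 194 CPM against 17.1 CPM and was also lower in *Mki67*-high Sertoli cells, at 114 CPM. The remaining genes of the 25 had log2 ratios between 2.85 and 3.24.

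The most abundant genes were a different set, since many are used by every cell. Outside mitochondrial and ribosomal protein genes, *Tpt1* (8838 CPM) and *Eef1a1* (5645 CPM), both tied to translation, came first. Next was *Ctsl*, the lysosomal protease cathepsin L, at 4446 CPM (4404 to 4489) against 750 CPM in all other barcodes. A cell held 0 to 215 *Ctsl* UMIs with a median of 60, and *Ctsl* had one of the highest ratios of variance to mean between cells. *Sparc*, a matrix protein, had 2470 CPM in *Mki67*-low Sertoli cells and a like level of 2611 CPM in steroidogenic barcodes.

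Among transcription factors of the Sertoli lineage and the gonad, 2 of 13 counted genes were at least 4-fold higher and 2 were at least 4-fold lower, beside 1.56% and 2.83% of all genes, and the median log2 ratio was 0.45 against -0.04 for all genes. The higher ones were relatives of *Sox9*. *Sox8* had 73.8 CPM (68.5 to 79.5) against 7.56 CPM, and *Sox10* 23.1 CPM against 2.01 CPM. *Wt1*, which keeps the Sertoli fate, had 271 CPM against 85.0 CPM, and *Gata4*, a partner of NR5A1 on several gonadal promoters, 165 CPM against 62.5 CPM. *Nr5a1* itself, the gene removed in the study's mutants, had 72.8 CPM (67.5 to 78.4) in *Mki67*-low and 68.8 CPM in *Mki67*-high Sertoli cells. Its level in steroidogenic barcodes was 248 CPM and in interstitial barcodes 21.4 CPM, so Sertoli cells held an intermediate level. The lower genes were *Lhx9*, a homeobox gene of the early gonad, with 12.5 CPM against 151 CPM, and *Tcf21*, a factor of interstitial progenitors, with 31.1 CPM against 357 CPM. Of the *Tcf21* UMIs, 87.5% lay in the 45 collagen-rich cells, and the other cells had 4.27 CPM. *Sry*, which starts testis development and is shut off early, had 0 UMIs in these cells, which allows up to 0.315 CPM.

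**Figure D2:**
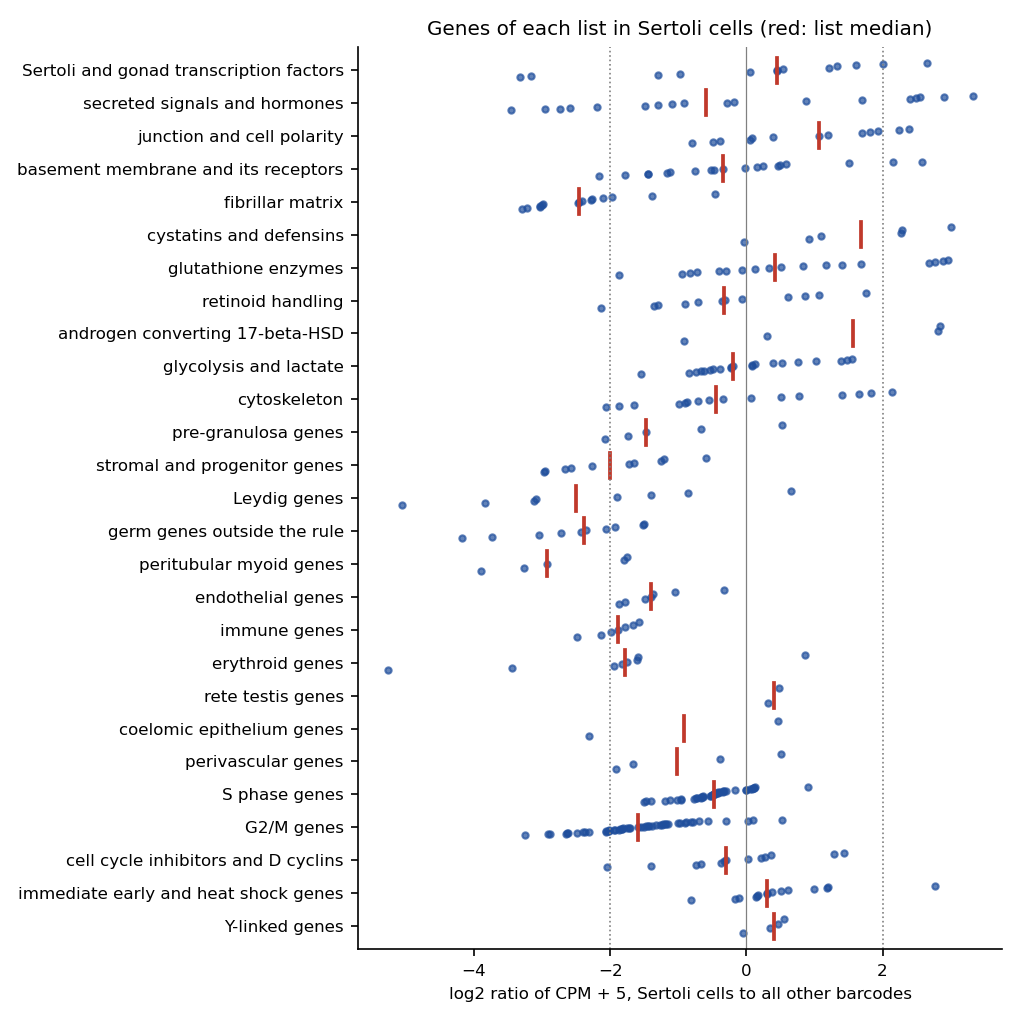
Log2 ratio of *Mki67*-low Sertoli cells to all other barcodes (5 CPM added) for the counted genes of each list with 1 point per gene, a red bar at the list's median and dotted lines at 4-fold. Cystatins and defensins, 17-beta-HSD and junction genes have medians above 1, whereas fibrillar matrix, Leydig, germ cell and peritubular myoid genes have medians below -2.

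Secreted signals and hormones did not share a direction, with 5 of 18 at least 4-fold higher, 5 at least 4-fold lower and a median log2 ratio of -0.60, beside 1.56% and 2.83% of all genes. Besides *Ptgds* and *Wnt6*, the higher ones were *Pdgfa*, a PDGF ligand, at 432 CPM (419 to 446) against 69.6 CPM, and *Kitl*, the KIT ligand that germ cells depend on, at 244 CPM (234 to 254) against 41.9 CPM. *Inhbb*, the beta B subunit of inhibin and activin, had 172 CPM (164 to 180) against 26.4 CPM, with 0 to 11 UMIs in a cell. Its partners were distributed otherwise. *Inha*, the alpha subunit that makes inhibin of a beta chain, was present at 280 CPM (269 to 290) but at 2579 CPM in steroidogenic barcodes, and *Inhba*, the beta A subunit, had 11.5 CPM in *Mki67*-low Sertoli cells against 179 CPM in interstitial barcodes. Of the 109 *Inhba* UMIs, 98.2% lay in the 45 collagen-rich cells. *Gdnf*, a growth factor for germline stem cells, had 38.2 CPM against 8.30 CPM, and *Fgf9*, which supports Sertoli fate, 16.2 CPM against 6.59 CPM. The lower signals were found mostly in interstitial barcodes, among them *Cxcl12* (30.3 against 270 CPM), *Ptn* (39.4 against 482 CPM) and *Tgfb2* (6.51 against 63.9 CPM). The collagen-rich cells held 86.8% of the *Cxcl12* UMIs, and the other cells had 4.39 CPM of it.

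Of 13 counted cell junction and polarity genes, 2 were at least 4-fold higher and none was at least 4-fold lower, and their median log2 ratio was 1.07 against -0.04 for all genes, beside 1.56% and 2.83% of all genes past 4-fold. *Espn*, an actin-bundling protein of the junctions of adult Sertoli cells, had 204 CPM (195 to 213) against 34.8 CPM, and *Jam2*, a junctional adhesion molecule, 142 CPM (134 to 150) with 5.86 CPM in interstitial barcodes. *Gja1*, the gap junction protein connexin 43, had 255 CPM against 68.6 CPM, with 288 CPM in steroidogenic barcodes. N-cadherin (*Cdh2*) stood at 52.2 CPM against 22.3 CPM, and the scaffold gene *Tjp1* was not higher, at 41.0 CPM against 54.9 CPM.

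Basement membrane genes and their receptors were uneven, with 2 of 19 at least 4-fold higher, 1 at least 4-fold lower, 10 within 2-fold and a median log2 ratio of -0.34, beside 1.56% of all genes at least 4-fold higher, 2.83% lower and 8472 of 10418 within 2-fold. Of the receptors, *Itga6*, the laminin-binding integrin alpha 6, had 485 CPM against 76.8 CPM and *Dag1*, dystroglycan, 240 CPM against 81.3 CPM, whereas *Itgb1*, the integrin beta 1 chain, had 174 CPM against 176 CPM. *Col18a1*, a basement membrane collagen, had 530 CPM (516 to 545) against 115 CPM. The main collagen IV chains were lower, with 153 CPM against 424 CPM for *Col4a1* and 86.2 CPM against 198 CPM for *Col4a2*, and interstitial barcodes held 680 CPM and 318 CPM of them.

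Of the 20 most abundant genes, *Defb19* and *Gstm2* belong to the lists of cystatins and defensins and of glutathione enzymes. Of 6 counted cystatin and defensin genes, 3 were at least 4-fold higher, beside 1.56% of all genes, with a median log2 ratio of 1.68. *Cst12*, a cystatin, had 52.7 CPM against 6.97 CPM and *Defb36* 51.7 CPM against 6.58 CPM, both far below *Defb19*. *Cst8* had 446 CPM but 1566 CPM in steroidogenic barcodes. Among 18 glutathione genes, the 4 at least 4-fold higher were *Gstm1*, *Gstm2*, *Gstm6* and *Gstm7*, mu class transferases that conjugate glutathione to reactive compounds. *Gstm2* had 2183 CPM (2153 to 2213) against 275 CPM and *Gstm1* 1684 CPM (1658 to 1710) against 258 CPM. These genes are near-identical copies in part, so how reads were split between them, and with it the level of each one, is uncertain. The median of the list was 0.42, with *Gpx4*, the lipid peroxide reductase, at 573 CPM against 522 CPM.

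Some of these genes are neighbours on the chromosomes (GRCm38). Of the 162 genes at least 4-fold higher, 44 (27.2%) had another one within 500 kb, in 19 runs, most of them pairs. What share gene density alone gives was not measured, so the runs are listed as positions only. Each run begins and ends with a gene at least 4-fold higher. The counts within runs are therefore high by construction, beside 1.56% of all genes. The run with most genes was on chr3:107926334-108380057 and held *Gstm7*, *Gstm6*, *Gstm2*, *Gstm1* and *Mybphl*, which were 5 of the 10 counted genes there. A run on chr2:148768609-148838738 held the cystatin genes *Cst11*, *Cstdc1*, *Cst12* and *Cst9*, 4 of 5 counted genes, and one on chr2:152576086-152951698 held *Defb19*, *Defb36* and *Dusp15*, 3 of 11. *Amh* was next to *Jsrp1*, both higher, and *Hsd17b3* lay with *Ctsl* on chr13:64058266-64370890. The 162 genes include the 8 Sertoli markers of the rule. That *Cst9* and *Amh* are among them is therefore part of the choice.

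Steroid, retinoid and energy genes were higher only for particular members. *Hsd17b1*, which like *Hsd17b3* acts at the 17-beta position, had 158 CPM (151 to 167) against 18.1 CPM, and in single cells 0 to 10 UMIs. *Hsd17b12*, which acts mainly on fatty acids, had 91.3 CPM against 73.2 CPM, and 2 of 4 genes of the list were at least 4-fold higher, beside 1.56% of all genes. *Aldh1a1*, which makes retinoic acid, had 1260 CPM (1237 to 1283) against 368 CPM, and 1721 CPM in steroidogenic barcodes. *Cyp26b1*, which degrades retinoic acid and keeps germ cells out of meiosis, had 80.6 CPM against 42.3 CPM, again below the 212 CPM of steroidogenic barcodes. *Dhrs3*, which turns retinal back into retinol, was lower, at 2.42 CPM against 27.6 CPM, and no other of the 12 counted retinoid genes was past 4-fold. The 21 glycolysis and lactate genes had a median log2 ratio of -0.20 with none past 4-fold, where a list of this size holds few such genes at the shares of all genes (1.56% and 2.83%), and *Ldhb*, a lactate dehydrogenase subunit, was the most abundant at 1488 CPM against 566 CPM. *Hspb1*, a small heat shock protein, was the only one of 15 immediate early and heat shock genes at least 4-fold higher, at 701 CPM against 98.6 CPM, with a median log2 ratio of 0.31 for the list. In sum these genes had 2358 CPM in *Mki67*-low Sertoli cells, compared with 889 CPM in interstitial and 1042 CPM in steroidogenic barcodes. *Jund*, an AP-1 subunit, made up 979 CPM of it, and *Fos*, another AP-1 gene that rises when tissue is dissociated, 9.56 CPM.

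Intermediate filament and actin genes were looked at as well. *Krt8*, a keratin of simple epithelia, had 92.0 CPM (86.0 to 98.3) against 17.1 CPM and its partner *Krt18* 66.8 CPM against 15.2 CPM, beside *Vim*, vimentin, at 1467 CPM against 1026 CPM. *Tmsb4x*, an actin-binding peptide, was lower, at 509 CPM against 2130 CPM, and 1 of 16 cytoskeleton genes was past 4-fold in each direction, beside 1.56% and 2.83% of all genes. Without the collagen-rich cells, 2 were at least 4-fold lower.

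The letters to which factors of the Sertoli lineage bind were looked for in promoters, from 250 bases before to 50 after a transcript start (RefSeq, GRCm38.p6, both strands). AAGGTCA, which NR5A1 binds, was in 4.72% of all 32851 promoters and in 3.29% of the 152 promoters of 122 genes at least 4-fold higher. AACAAT, a SOX motif, was in 10.7% and 5.92%, and AGATAA, to which factors of the GATA family bind, in 11.2% and 9.21%. Of the 25 genes with the highest ratio, 18 were matched, with 24 promoters. Among those, a promoter of *Amhr2* and a promoter of *Cited1* held AAGGTCA, and they are shown because the study removed the factor that binds it. The capitals mark the match, which begins 231 bases before the start in *Amhr2* (chr15:102445117-102445416, plus strand) and 217 bases before it in *Cited1* (chrX:102250727-102251026, minus strand), where it reads on the other strand.
Amhr2: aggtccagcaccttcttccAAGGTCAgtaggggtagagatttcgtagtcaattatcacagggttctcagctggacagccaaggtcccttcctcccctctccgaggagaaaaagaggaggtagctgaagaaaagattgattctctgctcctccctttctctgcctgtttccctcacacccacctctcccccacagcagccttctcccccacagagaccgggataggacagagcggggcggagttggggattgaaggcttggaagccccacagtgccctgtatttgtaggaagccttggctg
Cited1: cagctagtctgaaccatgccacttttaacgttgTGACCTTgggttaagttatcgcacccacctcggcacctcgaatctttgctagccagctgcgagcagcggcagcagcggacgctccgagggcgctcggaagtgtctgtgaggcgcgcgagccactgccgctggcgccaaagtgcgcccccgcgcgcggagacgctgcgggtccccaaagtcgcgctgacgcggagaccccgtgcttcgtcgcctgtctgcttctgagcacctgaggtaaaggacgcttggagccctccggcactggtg
Promoters of 4 of the 8 markers were matched (*Cst9*, *Tesc*, *Cldn11* and *Dhh*) and none held any of the motifs. *Amh*, *Sox9*, *Aard* and *Mro* were not matched. The study states that NR5A1-binding sites are known for *Amh*, *Sox9* and *Dhh*, and a search of this window for exact letters can miss such sites. A match describes letters only, and binding was not measured.

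Markers of germ, Leydig, endothelial and immune cells were low in sum, whereas those of the rete testis were not lower than in other groups. Germ cell genes outside the rule summed to 27.4 CPM in *Mki67*-low Sertoli cells and 2061 CPM in germ-gene barcodes, with *Dnd1* the most abundant at 9.03 CPM. Leydig genes outside the rule summed to 476 CPM against 12666 CPM in steroidogenic barcodes, and *Fdxr*, a mitochondrial reductase that many cells use, made up 308 CPM of it. *Insl3*, the hormone of Leydig cells, had 3 UMIs in all, and *Lhcgr*, the luteinizing hormone receptor, had 0. *Ren1*, renin, which fetal Leydig cells make, had 7.56 CPM against 3591 CPM in steroidogenic barcodes. The ovarian pre-granulosa genes *Foxl2* and *Irx5* had 0 UMIs, and *Wnt4* 27.1 CPM. Rete testis genes summed to 36.2 CPM, near the 33.9 CPM of interstitial and 39.9 CPM of steroidogenic barcodes. Endothelial genes summed to 33.3 CPM, against 20.1 CPM in steroidogenic barcodes and 438 CPM in the 874 barcodes outside the named sets. Immune genes summed to 4.41 CPM, against 2.58 CPM in germ-gene barcodes and 630 CPM in those 874. *Egfl7* and *Fcer1g* were the most abundant of these 2 lists in *Mki67*-low cells. The 45 collagen-rich cells held 28 of the 42 immune UMIs, and the other cells had 1.62 CPM of these genes.

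Interstitial markers were concentrated in a few cells to a varying degree. The 45 collagen-rich cells held 78.6% of the fibrillar matrix UMIs, 57.5% of the peritubular myoid and 47.2% of the stromal and progenitor UMIs. The 15 fibrillar matrix genes summed to 433 CPM in *Mki67*-low Sertoli cells, 12 of them at least 4-fold lower than in all other barcodes, beside 2.83% of all genes, with a median log2 ratio of -2.45. The stromal and progenitor genes summed to 310 CPM and the peritubular myoid genes to 100.3 CPM, with *Ptch1* and *Myl9* the most abundant. Without the 45 collagen-rich cells, these sums were 102, 180 and 46.9 CPM, the median of the fibrillar list was -3.47, and 13 of its 15 genes were at least 4-fold lower.

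The collagen-rich cells had at least 10 UMIs of the 15 fibrillar matrix genes in 10000, a limit chosen after the values were seen. They were 45 of 702 cells (6.41%), compared with 23 of the *Mki67*-high Sertoli cells (9.09%) and 1899 of the 1901 interstitial barcodes, and the range was sparse around the limit, with 5 cells between 5 and 10 and 4 between 10 and 20. The median of all *Mki67*-low cells was 0.81 in 10000 and that of interstitial barcodes 57.8. These 45 cells were deeper, with a median of 19281 UMIs against 13368 in the rest, and had 4838 genes against 3834. They held 89.5% of all *Nr2f2* UMIs in *Mki67*-low Sertoli cells, with 366 CPM against 4.27 CPM in the rest, and 88.1% of those of *Pdgfra*. At the same time their Sertoli markers were lower in sum, at 4409 CPM against 8865 CPM, with *Amh* at 1024 against 2051 CPM and *Defb19* at 1954 against 3693 CPM. The doublet caller marked 14 of the 45. Whether the others were also droplets with a pair of cells was not tested.

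**Figure D3:**
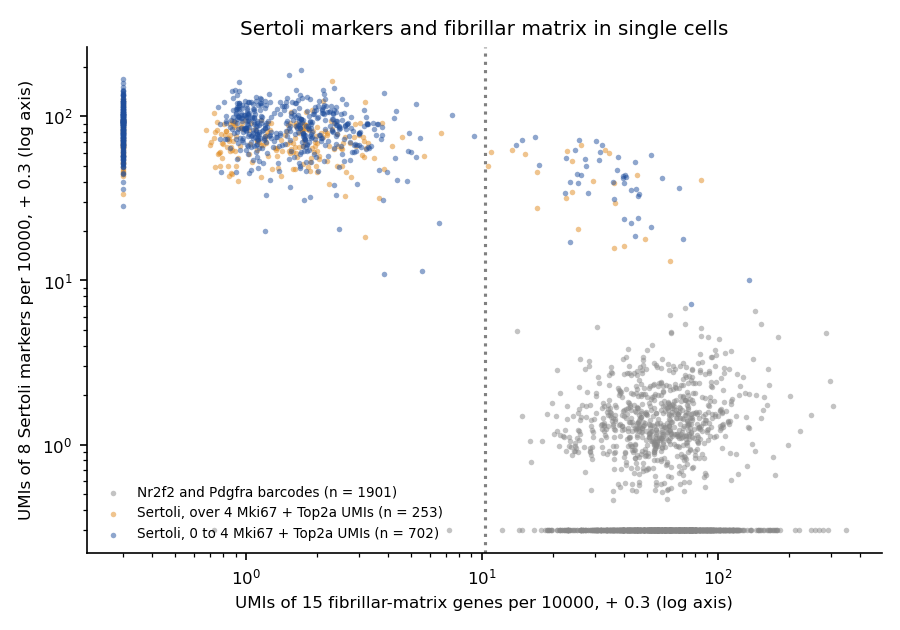
UMIs of 15 fibrillar matrix genes (horizontal, 0.3 added) and of 8 Sertoli markers (vertical, 0.3 added) in 10000 UMIs, both axes logarithmic, 1 point per *Mki67*-low (blue), *Mki67*-high (orange) or interstitial (grey) barcode, with a dotted line at the limit of 10. The 45 blue points past the line lie apart from the bulk, toward the interstitial barcodes on the horizontal axis.

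Against *Mki67*-high Sertoli cells, which met the other limits of the rule, more genes were lower than higher. Of 9923 counted genes, 9 were at least 2-fold higher in *Mki67*-low cells (0.0907%) and 300 were at least 2-fold lower (3.02%). The count of higher genes depended on the processing, with 45 higher and 330 lower in cells thinned to 5000 UMIs, 36 higher with 1 CPM added in place of 5, and 20 higher with a total without mitochondrial, ribosomal protein and hemoglobin genes. Since *Mki67* and *Top2a* chose the groups, lower cell cycle genes are part of the choice. Of 51 G2/M genes (*Mki67* and *Top2a* not included), 48 were at least 2-fold lower, with a median log2 ratio of -2.53, and their sum was 2150 CPM against 10532 CPM. *Nusap1*, a spindle protein, had the lowest ratio, with 6.41 CPM against 202 CPM, and *Ube2c*, which marks mitotic proteins for destruction, had 37.8 CPM against 713 CPM. The S phase genes differed less, with 18 of 43 at least 2-fold lower, a median of -0.91 and a sum of 1989 CPM against 3926 CPM. *Stmn1*, a tubulin regulator (498 against 1444 CPM), and *Tubb5*, a tubulin (1048 against 2214 CPM), were also lower.

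The genes higher in *Mki67*-low cells were few. *Mxd4*, a MAX-binding repressor that opposes MYC, had 91.8 CPM (85.8 to 98.1) against 32.6 CPM in *Mki67*-high Sertoli cells. A cell held 0 to 10 *Mxd4* UMIs with a median of 1. *Prcd*, a gene known from photoreceptor disks, had 104 CPM (97.4 to 110) against 42.1 CPM, and *Tmem150a*, a membrane protein, 40.1 CPM against 16.7 CPM. The neutrophil genes *S100a8* and *S100a9* also passed, but 2 of the collagen-rich cells held 96.1% and 98.5% of their UMIs. With 0.0907% of all genes in that direction, a short gene list would be expected to hold none, so levels of Sertoli genes are only set side by side. *Defb19* had 3536 against 3173 CPM, *Clu* 2667 against 2531 CPM, and *Hsd17b3* 257 against 267 CPM.

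Cell cycle transcripts were compared at equal depth, with each cell thinned to 5000 UMIs, which kept 680 of the 702 cells. The S phase genes gave a median of 6 UMIs in *Mki67*-low Sertoli cells (0 to 52), 19 in *Mki67*-high, 9 in interstitial and 3 in steroidogenic barcodes. The lower quartile of *Mki67*-high Sertoli cells was 11, and 199 *Mki67*-low cells (29.3%, 25.9 to 32.8%) were at or above it. So were 77.5% of *Mki67*-high Sertoli cells and 55.9% of germ-gene, 45.4% of interstitial and 1.66% of steroidogenic barcodes. Reaching this level does not by itself mark a dividing cell. For G2/M genes the median was 8 against 50, the quartile was 35, and 27 cells (3.97%, 2.63 to 5.73%) were at or above it. *Mki67*-low Sertoli cells thus overlapped *Mki67*-high ones in S phase transcripts and hardly in G2/M transcripts. Since *Mki67* and *Top2a* split the groups, the small overlap in G2/M transcripts follows at least in part from the rule. The overlap was not limited to cells near the limit of the rule, since 117 of the 522 cells with 0 UMIs of *Mki67* and *Top2a* (22.4%) were in the S phase set, compared with 82 of 158 with 1 to 4 UMIs (51.9%).

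**Figure D4:**
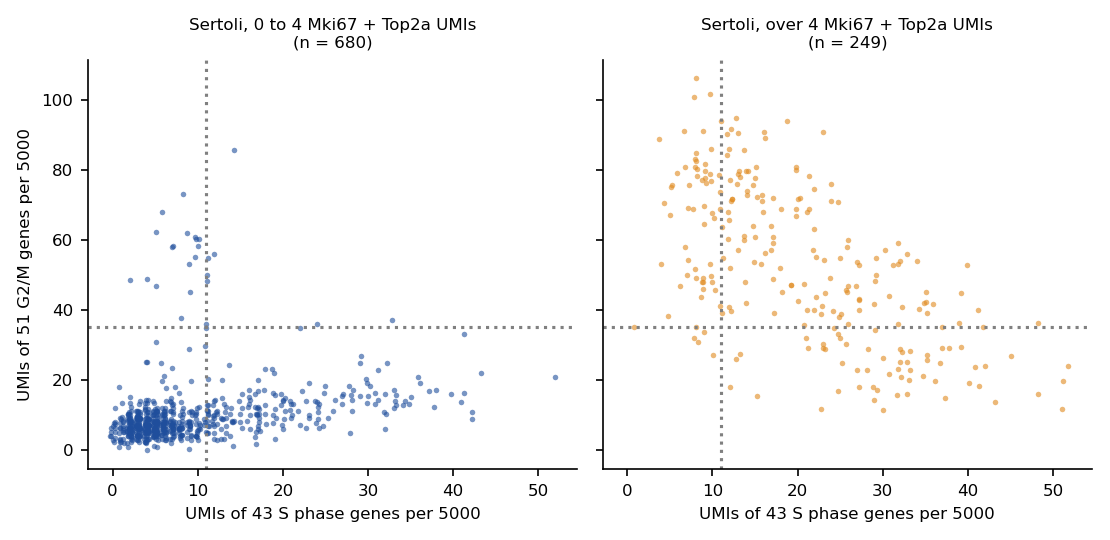
UMIs of 43 S phase genes (horizontal) and 51 G2/M genes (vertical) in cells thinned to 5000 UMIs, 1 point per cell with small random offsets, for *Mki67*-low (left, n = 680) and *Mki67*-high (right, n = 249) Sertoli cells. Dotted lines mark the lower quartiles of the *Mki67*-high cells, which 29.3% of the *Mki67*-low cells reach for S phase and 3.97% for G2/M.

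The S phase set was close to the other *Mki67*-low cells in the Sertoli genes compared. Its summed Sertoli markers were 8188 CPM against 8588 CPM, with *Amh* at 2003 against 1942 CPM. Both sets had been chosen by these markers, so this likeness follows in part from the rule. Outside the rule, *Defb19* stood at 3531 against 3543 CPM and *Ptgds* at 2162 against 2042 CPM. *Clu* had 2732 against 2643 CPM and *Gstm2* 2037 against 2251 CPM. The median depth of the S phase set was 14720 UMIs against 13097. The genes that chose it were higher by definition, such as *Pcna*, the sliding clamp of DNA replication, at 227 against 49.3 CPM. *Ccnd2*, the cyclin D2 that drives cells out of G1, had 549 CPM in the set and 340 CPM in the other cells. Cell cycle inhibitors and D cyclins, the list that holds both *Ccnd2* and *Cdkn1c*, summed to 1015 CPM in the set against 931 CPM. Of single genes, *Mxd4* had 65.2 against 105 CPM and *Cdkn1c* 66.9 against 186 CPM. Among cells with under 15 *Cdkn1c* UMIs it stood at 59.5 CPM (51.1 to 69.0) in the set and at 119 CPM (110 to 128) in the others. Of the 199 cells, 17 were also collagen-rich.

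For most genes the ratio of variance to mean between *Mki67*-low cells was close to that of counting noise. At a given relative spread this ratio rises with the mean, so scarce genes can vary and stay near 1. Abundant genes rank high for the same reason, and most variable here means a high ratio. Of 3783 genes with a mean of at least 0.2 UMI in cells thinned to 5000, the median ratio of variance to mean was 1.05, where counting alone gives about 1, and 65 genes (1.72%) were at 2 or more. The most variable were the globin genes, with a ratio of 830 for *Hbb-bs*, the adult beta-globin. They are near-identical pairs, so single members are uncertain, and 3 cells with at least 5% hemoglobin UMIs held 88.8% of the erythroid UMIs. Without these 3 the erythroid list summed to 241 CPM, against 2145 CPM with them. Next came mitochondrial genes, with *mt-Co3* at 8.54, and collagens, with *Col3a1* at 6.53, followed by *Ctsl* at 6.48, *Tmsb4x* at 6.41, *Igfbp5* at 6.39 and *Cdkn1c* at 6.25.

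**Figure D5:**
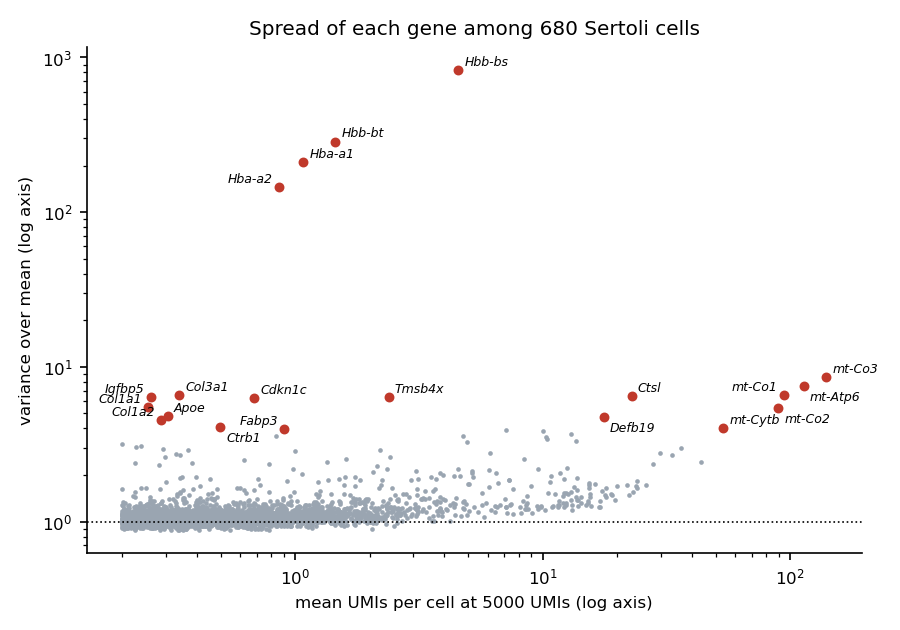
Ratio of variance to mean against mean UMIs in 680 *Mki67*-low Sertoli cells thinned to 5000 UMIs, 1 point per gene, both axes logarithmic, with the 20 most variable genes in red. Most genes lie near 1 (median 1.05), and globin, mitochondrial and collagen genes, *Ctsl*, *Igfbp5* and *Cdkn1c* lie above.

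The genes that varied did not vary as one. Across the 680 cells, which share a library, Spearman's rho was 0.77 for *mt-Co3* with *mt-Atp6* and 0.68 for *Col1a1* with *Col1a2*, and 0.53 for *Igfbp5* with *Col1a1*. The 45 collagen-rich cells held 89.8% of the *Col1a1* and 60.9% of the *Igfbp5* UMIs, and the 14 cells with most *Cdkn1c* held 27.9% of the *Igfbp5* UMIs, with 1 cell in both sets. It was 0.33 for *Ctsl* with *Defb19* and -0.29 for *Tmsb4x* with *Defb19*. Among secreted products, *Defb19* had a ratio of 4.73, and *Amh* of 3.83.

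*Cdkn1c*, which encodes the cell cycle inhibitor p57, was carried by few cells at a high level. It had 0 UMIs in 349 of the 702 cells, a median of 1 and a highest value of 67, and the 14 cells with at least 15 UMIs, a limit chosen after the values were seen, held 34.6% of its UMIs. In those 14 cells the level was 1935 CPM, and in the rest 99.7 CPM (93.4 to 106). The *Mki67*-high cells had 79.8 CPM, or 55.8 CPM (49.3 to 62.8) without the 4 of them with at least 15 UMIs. So *Cdkn1c* was higher in *Mki67*-low than in *Mki67*-high Sertoli cells with and without these cells. Against all other barcodes it was lower, at 148 CPM against 400 CPM. At least 15 UMIs were held by 209 of the 249 steroidogenic and 36 of the 1901 interstitial barcodes.

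The 14 cells with most *Cdkn1c* differed in further genes. They were deeper, with a median of 17146 UMIs against 13408, 1 of them was collagen-rich, and the doublet caller marked none. Their Sertoli markers summed to 5619 CPM against 8540 CPM, with *Amh* at 571 against 1996 CPM, *Ptgds* at 520 against 2119 CPM and *Defb19* at 940 against 3606 CPM, while *Sox9* was at 365 against 348 CPM and *Gstm2* at 2891 against 2163 CPM. *Pax8*, a gene of the rete testis, had 19 of its 33 UMIs in 7 of these cells. *Wnt4* stood at 226 against 21.7 CPM, *Podxl*, a surface sialomucin, at 270 against 10.3 CPM, *Ncam1*, an adhesion molecule, at 337 against 40.7 CPM, and *Emx2*, a homeobox gene of the gonad and its ducts, at 99.1 against 11.2 CPM. The 6 rete testis genes summed to 159 CPM in these cells against 32.9 CPM in the rest. Of the 159 CPM, *Pax8* gave 75.4 CPM and *Aldh1a3* 55.5 CPM. *Krt7*, the most abundant gene of the list over all *Mki67*-low cells, was lower, at 3.97 CPM against 16.5 CPM in the rest. *Aldh1a3* was seen in only 2 of the 14 cells. The pre-granulosa list summed to 282 against 45.6 CPM, with *Foxl2* at 0, and the peritubular myoid list to 559 against 87.8 CPM. Part of these sums came from single genes that were seen in only some of the 14 cells. *Wnt4* gave 57 of the 71 pre-granulosa UMIs and was seen in 6 cells. *Tagln* gave 47 of the 141 myoid UMIs and was seen in 2 cells. Whether the 14 cells belong to another cell type was not tested.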

How the data were processed

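The authors dissociated 12 control testes, made a 10x Genomics 3′ v3 library and deposited a matrix of raw UMI counts for 22631 features and 5421 barcodes. The submitters' processing notes name Cell Ranger 3.0.2 and 3.1.0 and the builds mm10 and GRCm38, and the matrix header gives 3.1.0. The methods name a later version of Cell Ranger than these, and a mouse genome joined to a YFP sequence. They apply cell filters and a doublet removal to the count matrices from that version. How those matrices differ from the deposited one was not tested. Of the barcodes in the deposited matrix, 5049 have at least 200 genes.

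UMIs were summed over groups of barcodes and scaled to CPM. Log2 ratios were taken with 5 CPM added, genes with a mean of at least 5 CPM over both groups were counted, and calls are 4-fold (all other barcodes) or 2-fold (*Mki67*-high Sertoli cells). Intervals are exact Poisson or Clopper-Pearson at 95%. Cells were thinned to 5000 UMIs without replacement with seed 1. The code was tested on simulated counts. Work was done in Python 3.11.15, with matplotlib 3.10.9 for plots and numpy 2.4.6, pandas 2.3.3 and scipy 1.17.1 for the values.

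Doublets were kept in the main values. As an alternative, 148 barcodes (3.44%) that lay nearest to simulated doublets were left out. Of 28 barcodes with at least 6 Sertoli markers and at least 4 germ genes, 16 were among them. Other alternatives changed the limits of the rule, the added CPM, the CPM floor, the total, and the mitochondrial share, which was limited to 15.2% (227 barcodes over it, 79 of them *Mki67*-low Sertoli cells).

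Leaving out the 20 genes of the rule, the genes named were the 25 highest and 15 lowest against all other barcodes, the 15 highest and 15 lowest against *Mki67*-high Sertoli cells, the 20 most abundant, the 20 most variable, and members of 27 gene lists. Genes of the collagen-rich and *Cdkn1c*-rich cells were also named after their values were seen. The cells, lists and limits were chosen with earlier results of these data known. The mutant library was not analysed here.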

Additional observations from a re-analysis of the deposited data

Results flagged for a closer look

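Data outside the comparisons held a signal in 2 places. Under the limit of 1000 genes, 10 barcodes had at least 6 of the 8 Sertoli markers. Their median was 1266 UMIs and 815 genes. They were picked by these markers at a low depth, so a high marker level follows from the choice and is not compared here.

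A UMI of the YFP sequence, whose reporter the study describes as absent from the control gonads used for single cells, was seen in 30 *Mki67*-low Sertoli cells (4.27%, exact Clopper-Pearson 95% interval 2.90 to 6.05%), with 32 UMIs in all. Of the other barcodes with at least 1000 genes, 118 had one (3.28%, 2.72 to 3.91%), with 125 UMIs. In cells thinned to 5000 UMIs the shares were 1.47% and 0.917%. The intervals overlap, and the source of these UMIs was not tested.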

How the results depend on the processing

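Of the up to 70 genes that are highest or lowest in either comparison and could be followed, none changed the sign of its ratio under the alternatives, which says little about stability for genes chosen as the most extreme. Outside its counting interval lay the ratio of 38 of 70 with 1 CPM added, 36 of 70 with 0 UMIs of *Mki67* and *Top2a*, and 29 of 40 against other barcodes with under 4 Sertoli markers. The most abundant and most variable genes were not followed in this way. The share of *Mki67*-low Sertoli cells was 18.0% with at least 5 markers, 13.9% with at least 7, and 12.5% with 0 UMIs of *Mki67* and *Top2a*. The count of genes at least 4-fold higher than all other barcodes was 333 when only other barcodes with under 4 Sertoli markers were used and 347 with 1 CPM added in place of 5, and the count at least 4-fold lower was then 670. The 9 genes at least 2-fold higher than in *Mki67*-high Sertoli cells were the least stable count, with 4 when *Mki67* and *Top2a* had to be 0, 36 with 1 CPM added, 4 with a floor of 20 CPM, 20 with a total that leaves out mitochondrial, ribosomal protein and hemoglobin genes, and 45 in cells thinned to 5000 UMIs. Leaving out the collagen-rich Sertoli cells, an alternative chosen after the data were seen, gave 14, and 184 and 404 genes at least 4-fold higher and lower than all other barcodes. Leaving out the 14 cells with most *Cdkn1c*, also chosen after the data were seen, gave 9, 163 and 300. Without likely doublets the counts were 11, 172 and 335. The count at least 2-fold lower than in *Mki67*-high Sertoli cells stayed between 207 and 397. Of the 20 most variable genes, 15 were the same at 3000 UMIs. No paired analysis was possible because there was 1 library. For the same reason the spread between testes is unknown, and a gene with 0 UMIs could have had up to 0.315 CPM.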

Other observations

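Gene lists not described above gave the following values in *Mki67*-low Sertoli cells. Coelomic epithelium genes summed to 98.0 CPM, of which *Gata6*, a GATA factor also used by Sertoli cells, was 97.4 CPM. Perivascular genes summed to 39.4 CPM, with *Mcam*, an adhesion molecule, at 22.7 CPM. Y-linked genes summed to 220 CPM, compared with 216 CPM in *Mki67*-high Sertoli cells and 246 CPM in germ-gene barcodes, with *Eif2s3y*, a translation factor subunit, at 96.4 CPM. Cell cycle inhibitors and D cyclins summed to 956 CPM, compared with 838 CPM in *Mki67*-high Sertoli cells, and *Ccnd2* was the most abundant of them at 405 CPM.

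The genes lowest against all other barcodes were led by *Hbb-y*, an embryonic globin, at 15.7 CPM against 790 CPM, and *Ren1*, renin, at 7.56 CPM against 412 CPM. Further down the same 15 genes, *Acta2*, smooth muscle actin, had 28.6 CPM against 492 CPM, with 81.6% of its UMIs in the 45 collagen-rich cells and 5.77 CPM in the others, and *Dppa4*, a gene of pluripotent and germ cells, had 2.42 CPM against 128 CPM.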
